A study of Homo sapiens with 12 samples.

Results

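The genes described here are 9 members of the p53 network among the 23064 gene symbols of the deposited count tables, chosen by symbol, with earlier results of these data known. TP63 and TP73 encode p63 and p73, the relatives of the transcription factor p53. MDM2 and MDM4 encode the inhibitors of p53, and GDF15, SESN1, ZMAT3, TP53INP1 and RRM2B are classic transcriptional targets of p53. For each symbol the transcript row with the most counts was used, and all 9 members passed the filter on low counts in both cell lines.

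p53 is a stress-activated transcription factor that switches on genes for cell cycle arrest, DNA repair, metabolism and cell death. MDM2 is itself a p53 target and an E3 ubiquitin ligase that marks p53 for degradation, whereas MDM4 binds p53 and blocks its activity as a transcription factor. p63 is known in urothelium and other stratified epithelia as the factor that maintains basal cells, and it binds DNA elements much like those bound by p53.

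RNAseq was performed with CAL-29 and 5637 cells, both established human bladder carcinoma lines with the label genotype WT, 3 days after transfection with a control siRNA (siCtrl) or with siKMT9α#1, an siRNA against KMT9α, the catalytic subunit of the histone H4 lysine methyltransferase KMT9, which is encoded by N6AMT1. There were 3 libraries for each siRNA in each line, 12 in all, and nothing in the labels says that they came from separate cultures, so the p-values measure the spread between these libraries, which may be technical. CAL-29 cells were transfected with RNAiMAX and 5637 cells with DharmaFECT 3 at another siRNA concentration, so that reagent, dose and cell line cannot be told apart. Only this siRNA against KMT9α was used for RNAseq, and its column name in the tables, si270, is tied to siKMT9α#1 by the study's results alone.

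The libraries held between 24479348.5 and 35151256.5 counts on the rows kept. N6AMT1, the targeted gene, had 11.4, 10.2 and 9.68 CPM (counts scaled to library size, with edgeR's TMM factors within a line) in the CAL-29 siCtrl libraries and 2.82, 2.93 and 1.99 CPM with siKMT9α. In 5637 cells it had 13.4, 13.2 and 13.3 CPM with siCtrl and 3.75, 2.22 and 2.56 CPM with siKMT9α. Of 6 epithelial markers all reached 1 CPM in both lines, while leukocyte, endothelial and fibroblast markers stayed at or below 11.9 CPM, and CD3E had no counts in 5637 cells. The summed level of the epithelial markers was lower with siKMT9α, at 5220 to 5350 CPM against 10900 to 11200 CPM in CAL-29 cells and at 4830 to 5060 CPM against 7390 to 7730 CPM in 5637 cells. Leukocyte markers summed to 3.26 to 3.38 CPM with siKMT9α against 1.45 to 2.2 CPM in CAL-29 cells, and endothelial markers to 5.19 to 6.92 CPM against 11.4 to 13.7 CPM. The part of these shifts in the results below was not tested, and in bulk RNA a smaller share of expressing cells and less RNA per cell cannot be told apart. The siCtrl library of replicate 1 in CAL-29 cells stood somewhat apart, at a chi-square over degrees of freedom of 8.17 to 12.3 against its replicates, where other replicate pairs had 2.25 to 4.0.

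With siKMT9α, 6 of the 9 members passed the threshold for a differentially expressed gene (DEG) in the CAL-29 line, 1 upregulated and 5 downregulated, and 5 passed it in 5637 cells, 2 upregulated and 3 downregulated. MDM2, SESN1 and TP53INP1 fell in both lines, TP63 was downregulated in CAL-29 but upregulated in 5637 cells, and GDF15 had the highest fold change in each line. A DEG had an unadjusted p below 1e-06 from edgeR's quasi-likelihood test, and adjusted p-values are Benjamini-Hochberg values over all genes tested. Of all 14673 genes tested in the CAL-29 line 30.0% were DEGs, 15.0% in each direction, and in 5637 cells 35.6% of 14335 genes were, 18.0% upregulated and 17.6% downregulated. At an adjusted p below 0.05, 7 members were called in each line, against 69.5% of all genes for CAL-29 and 70.7% for 5637. In absolute size, the members' median log2 fold change was 0.70 against 0.38 over all genes for CAL-29 and 0.39 against 0.32 for 5637. Without siCtrl replicate 1, there were again 1 upregulated and 5 downregulated members in CAL-29 cells.

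**Figure D1:**
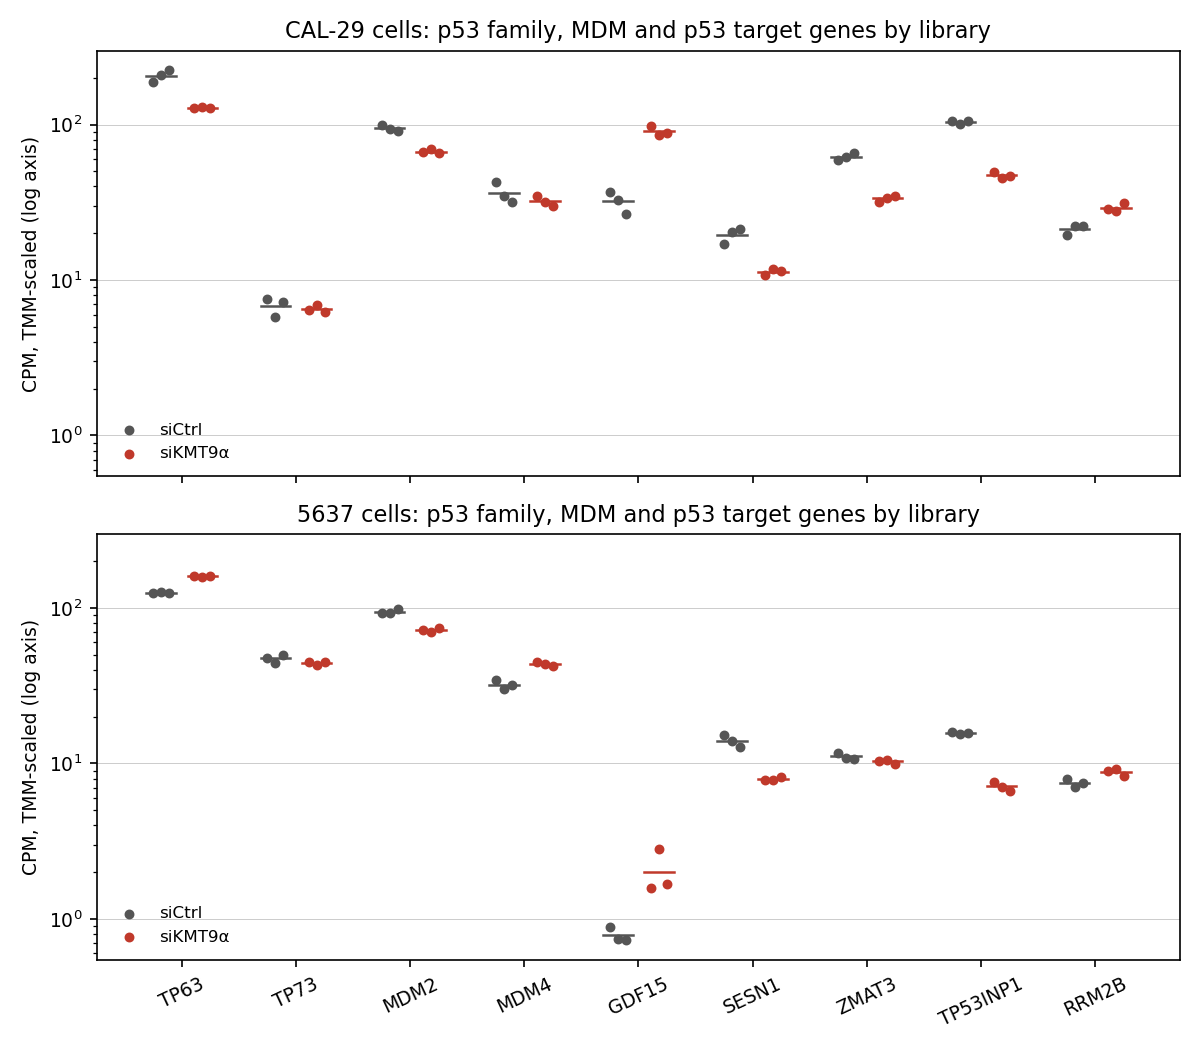
Level of each gene in every library, in CPM on a log axis, for CAL-29 cells (upper panel) and 5637 cells (lower panel). Points are single libraries and lines are means of 3 libraries; GDF15 lies between 26.6 and 98.3 CPM in CAL-29 cells and between 0.729 and 2.81 CPM in 5637 cells, and TP63 moves in opposite directions in the lines.

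Library groups did not overlap for 7 of 9 members in the CAL-29 line and 8 of 9 in the 5637 line, against 72.3% and 72.4% of all genes tested. With 3 libraries against 3, an exact permutation test of a single gene cannot go below p = 0.1, so the calls rest on the fit across all genes. Of the members, 3 were downregulated in both lines, where 8.49% of the 13674 genes tested in both lines were, and 1 changed in opposite directions, where 1.76% did.

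**Figure D2:**
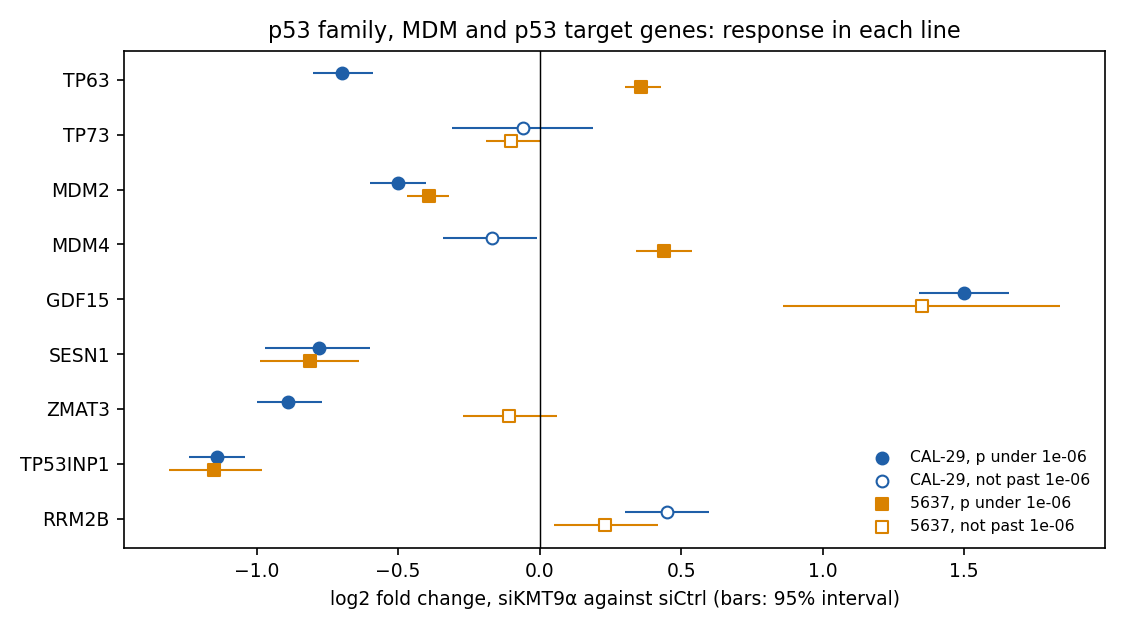
Log2 fold change with siKMT9α against siCtrl for each gene, with its 95% interval. Circles are CAL-29 cells and squares 5637 cells, and filled symbols mark p below 1e-06; the symbols of TP63 lie on opposite sides of 0, at -0.70 and 0.36, and those of TP53INP1 nearly coincide at -1.14 and -1.15.

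Among the family members, TP63 showed the clearest contrast between the lines. Its position on the plus strand is chr3:189349178-189615065 (GRCh37, the same assembly as hg19). With siCtrl it had 189, 207 and 224 CPM in CAL-29 cells, and with siKMT9α 127, 129 and 127 CPM. The groups did not overlap, with a log2 fold change of -0.70 (standard error 0.05, edgeR adjusted p = 3.33e-10). In 5637 cells TP63 had 125, 126 and 124 CPM with siCtrl and 161, 159 and 161 CPM with siKMT9α, so that the groups separated the other way. The log2 fold change there was 0.36 (standard error 0.03, edgeR adjusted p = 9.24e-11). The difference between these responses, CAL-29 minus 5637 in a joint fit of all 12 libraries, was -1.05 on the log2 scale (standard error 0.06, edgeR adjusted p = 8.19e-14).

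TP63 is transcribed from an upstream start that yields TA forms with a transactivation domain and from an internal start that yields ΔN forms, and splicing gives the α, β and γ ends. The count tables hold 6 TP63 rows that share most of their exons, so their counts are not separate measurements of the forms. All 6 rows fell in CAL-29 cells, with log2 fold changes from -0.70 to -0.55, and in 5637 cells they lay between 0.19 and 0.37, with 4 past 1e-06. In every library the rows that begin at the ΔN start held more counts than the TA rows with the same end, by 57.5 to 119.5 counts in CAL-29 cells and 49.5 to 88.0 counts in 5637 cells. The γ-end row held 23.8% to 28.2% of the counts of the α-end row in CAL-29 cells and 25.3% to 30.6% in 5637 cells.

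TP73, whose p73 product shares much of its DNA-binding domain with p53, was not called in either line. It lies on chromosome 1 from 3569080 to 3652765, where 9.4% of its exon bases overlap TP73-AS1 on the other strand, and the part of reads from that gene was not tested. In CAL-29 cells it had 7.55, 5.78 and 7.18 CPM with siCtrl and 6.43, 6.95 and 6.24 CPM with siKMT9α, which overlap. Its log2 fold change was -0.06, with a 95% interval from -0.31 to 0.19 (edgeR adjusted p = 0.689), and its sign turned to 0.02 without siCtrl replicate 1. In 5637 cells the libraries had 47.7, 44.4 and 50.1 CPM with siCtrl and 44.8, 43.3 and 45.1 CPM with siKMT9α. These overlap too, and the log2 fold change was -0.10 with an interval from -0.19 to 0.00 (edgeR adjusted p = 0.0853). With a library left out it ran from -0.05 (without siCtrl replicate 3) to -0.14 (without siCtrl replicate 2, edgeR adjusted p = 0.0217), and the adjusted p also fell below 0.05 with library totals (edgeR adjusted p = 0.00975) and upper quartile scaling (edgeR adjusted p = 0.0151).

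Of the inhibitors, MDM2 fell to a similar extent in both lines. It lies on chromosome 12 from 69201957 to 69239324, and genes of the opposite strand cover 11.1% of its exon bases. The CAL-29 libraries had 100, 93.6 and 91.0 CPM with siCtrl and 66.2, 69.2 and 65.8 CPM with siKMT9α, and in 5637 cells 93.5, 92.8 and 98.2 CPM against 72.2, 70.4 and 74.0 CPM. No siKMT9α library reached the lowest siCtrl library of its line. The log2 fold change of MDM2 was -0.50 for CAL-29 (standard error 0.05, edgeR adjusted p = 2.52e-08) and -0.39 in 5637 cells (standard error 0.04, edgeR adjusted p = 4.9e-10). The responses differed by -0.09, with an interval from -0.22 to 0.03 (edgeR adjusted p = 0.244).

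MDM4, in contrast, was upregulated in 5637 cells and not called in CAL-29 cells. The gene lies on chromosome 1 from 204485507 to 204527248. In 5637 cells it had 34.3, 30.2 and 32.1 CPM with siCtrl and 44.7, 43.7 and 42.6 CPM with siKMT9α, and its log2 fold change was 0.44 (standard error 0.05, edgeR adjusted p = 1.8e-08). In CAL-29 cells it had 42.6, 34.7 and 31.8 CPM with siCtrl, against 34.7, 31.7 and 30.1 CPM with siKMT9α. There the groups overlap, and the log2 fold change of -0.17 was not called (edgeR adjusted p = 0.0755). It ran from -0.04 without siCtrl replicate 1 to -0.25 without siCtrl replicate 3 (edgeR adjusted p = 0.00969). The adjusted p also fell below 0.05 without siKMT9α replicate 1 (edgeR adjusted p = 0.044) and with upper quartile scaling (edgeR adjusted p = 0.0446). It did so too without the filter on low counts (edgeR adjusted p = 0.0279) and with a replicate term (edgeR adjusted p = 0.0129). The difference between the lines of -0.60 (standard error 0.11, edgeR adjusted p = 2.74e-05) had an unadjusted p of 5.12e-06, short of the DEG threshold, and passed it with DESeq2, with edgeR's likelihood ratio test, without the filter on low counts and without siCtrl replicate 3 of CAL-29 cells.

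MDM2 and SESN1 are the members whose longest annotated 3′ UTR holds ACATTCA, the heptamer that pairs with bases 2 to 8 of the siKMT9α#1 guide strand. The sites are shown since both genes fell in both lines, each in a window of GENCODE transcript sequence with the heptamer in capitals, at chr12:69236447-69236453 on the plus strand and chr6:109307551-109307557 on the minus strand of GRCh37.
MDM2: tgtaattaatgACATTCAaaaatttatgg
SESN1: ataagccaagtACATTCAcacttaaatgg
The other 7 members hold no such heptamer, and no member holds it in its shortest annotated 3′ UTR. Only genes with an annotated 3′ UTR were counted for comparison. The heptamer occurs on the sense strand of the longest 3′ UTR of 15.4% of 12395 such genes tested in both lines. The share was 41.0% of the 1120 downregulated in both and 7.43% of the 1103 upregulated in both. Median 3′ UTR length was 1522, 2103 and 1500 bases in these sets and 3631 bases in the members. A match describes these letters, and the part of this site in the fall of MDM2 or SESN1 was not tested.

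Among the targets, TP53INP1 and SESN1 fell in both lines, ZMAT3 fell in CAL-29 cells, GDF15 rose in CAL-29 cells, and RRM2B passed the adjusted p alone, in both lines. TP53INP1, a stress-induced protein with roles in autophagy and cell death, lies on chromosome 8 from 95938200 to 95961606, and NDUFAF6 on the opposite strand covers 4.0% of its exon bases. In the CAL-29 line it had 105, 101 and 105 CPM with siCtrl and 49.4, 45.3 and 46.8 CPM with siKMT9α, which gives a log2 change of -1.14 (standard error 0.05, edgeR adjusted p = 5.26e-14). In 5637 cells it had 15.9, 15.5 and 15.7 CPM against 7.61, 7.02 and 6.70 CPM, a log2 fold change of -1.15 (standard error 0.08, edgeR adjusted p = 6.17e-13). The groups lay far apart in each line, and the responses differed by 0.03 with an interval from -0.14 to 0.20 (edgeR adjusted p = 0.834), although the siCtrl level was 6.30-fold higher in CAL-29 cells.

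SESN1 encodes sestrin 1, a stress protein that restrains mTORC1. It lies on the minus strand of chromosome 6 from 109305512 to 109416049, and a gene of the opposite strand covers 5.0% of its exon bases. The CAL-29 libraries had 17.0, 20.3 and 21.2 CPM with siCtrl and 10.7, 11.8 and 11.5 CPM with siKMT9α, and in 5637 cells 15.3, 13.9 and 12.7 CPM against 7.87, 7.79 and 8.14 CPM. The siKMT9α libraries lay below all siCtrl libraries in each line. This gives log2 fold changes of -0.78 for CAL-29 (standard error 0.09, edgeR adjusted p = 3.06e-07) and -0.81 for 5637 (standard error 0.09, edgeR adjusted p = 2.87e-09). In CAL-29 cells the unadjusted p moved past 1e-06 when a single library was left out, to 3.43e-06 without siCtrl replicate 2, 1.83e-06 without siKMT9α replicate 1 and 2.53e-06 without siKMT9α replicate 3. The responses of the lines differed by 0.05, with an interval from -0.21 to 0.31.

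Promoter windows of RefSeq, from 250 bases before to 50 bases after a transcription start, were searched for 7 of the 9 members, in 15 windows. No window of TP53INP1 or RRM2B was searched. The p53 consensus decamer, which reads the same on both strands, is a part of a full p53 element. It was searched in the 15 windows as an exact match. Windows without it, such as those of MDM2, may still hold p53 elements with mismatches. The exact decamer was found in 1 window, against 6.6% of all 35116 windows of the table. That window is shown since no other window searched for the members held the decamer, and it belongs to 1 of 3 annotated starts of SESN1. It is given on the minus strand from the RefSeq table of build GRCh38.p14, was matched without a difference to chr6:109330142-109330441 of GRCh37, and has the decamer in capitals, beginning at position -49 from the start.
SESN1: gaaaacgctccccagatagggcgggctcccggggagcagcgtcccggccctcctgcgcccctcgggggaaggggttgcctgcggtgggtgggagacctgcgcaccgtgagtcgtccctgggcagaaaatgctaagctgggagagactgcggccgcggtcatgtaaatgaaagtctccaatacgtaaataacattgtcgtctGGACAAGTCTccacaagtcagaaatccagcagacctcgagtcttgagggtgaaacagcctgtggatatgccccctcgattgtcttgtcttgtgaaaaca
The match describes this window only, and no binding was measured in these libraries.

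ZMAT3, an RNA-binding zinc finger protein that regulates splicing, differed between the lines. The gene lies on chromosome 3 from 178677909 to 178790003. Its CAL-29 levels were 59.3, 61.6 and 65.4 CPM with siCtrl and 31.9, 33.8 and 34.8 CPM with siKMT9α, so that its log2 change was -0.89 (standard error 0.06, edgeR adjusted p = 2.53e-11). In 5637 cells it had 11.7, 10.9 and 10.7 CPM with siCtrl and 10.4, 10.6 and 9.95 CPM with siKMT9α. Here the siKMT9α libraries were only just below the siCtrl libraries, and the log2 fold change of -0.11 was not called (edgeR adjusted p = 0.256). The difference between the lines was -0.77 (standard error 0.10, edgeR adjusted p = 1.11e-07).

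GDF15, a secreted stress cytokine of the TGF-β superfamily, rose from 37, 32.7 and 26.6 CPM with siCtrl to 98.3, 85.9 and 87.9 CPM with siKMT9α in CAL-29 cells. It lies on chromosome 19 from 18485541 to 18499986. The log2 fold change was 1.5 (standard error 0.08, edgeR adjusted p = 1.25e-12). In 5637 cells the gene was close to the detection limit, with 0.889, 0.738 and 0.729 CPM with siCtrl and 1.57, 2.81 and 1.67 CPM with siKMT9α, from means of 26.2 and 56.3 counts per library. All siKMT9α libraries were above all siCtrl libraries, and the log2 fold change of 1.35 (standard error 0.25, edgeR adjusted p = 2.43e-05) had an unadjusted p of 9.97e-06, short of the DEG threshold. The responses differed by 0.17, with an interval from -0.42 to 0.75 (edgeR adjusted p = 0.673), which leaves room for a sizeable difference either way.

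RRM2B encodes the p53-inducible small subunit of ribonucleotide reductase, which supplies deoxynucleotides for DNA repair. It lies on chromosome 8 from 103216730 to 103251189, and the row with the most counts was a different transcript in each line. The CAL-29 libraries had 19.5, 22.1 and 22.3 CPM with siCtrl and 28.6, 27.7 and 31.4 CPM with siKMT9α, and in 5637 cells 7.91, 7.06 and 7.46 CPM against 8.99, 9.16 and 8.27 CPM. In each line all siKMT9α libraries were above all siCtrl libraries. Its log2 fold changes of 0.45 for CAL-29 (standard error 0.08, edgeR adjusted p = 2.14e-05) and 0.23 for 5637 (standard error 0.10, edgeR adjusted p = 0.0308) were short of the DEG threshold. In CAL-29 cells the gene passed it with DESeq2 and with scaling by library totals. In 5637 cells the adjusted p exceeded 0.05 with DESeq2 (adjusted p = 0.0665), with library totals (edgeR adjusted p = 0.098) and with upper quartile scaling (edgeR adjusted p = 0.0736). It also did so without siCtrl replicate 2 or 3 or siKMT9α replicate 1 or 2, where edgeR adjusted p-values ran from 0.0634 to 0.106.

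Of all members, TP63 and ZMAT3 differed in response between the lines past 1e-06, and MDM4 did so at the adjusted p only. This is 2 and 3 of 9, against 15.7% and 50.4% of 15395 genes in the joint fit. The median absolute difference was 0.17 over the members and 0.34 over all genes.

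The siCtrl libraries were compared to describe where each line started, after joint scaling of all 12 libraries. Of the members, 6 differed past 1e-06 and 7 at an adjusted p below 0.05, against 59.8% and 85.4% of all genes tested. GDF15, TP53INP1, ZMAT3, RRM2B and TP63 were higher in CAL-29 cells and TP73 was higher in 5637 cells. GDF15 averaged 31.2 CPM in CAL-29 and 0.802 CPM in 5637 cells, a log2 difference of 5.28 (standard error 0.16). TP53INP1 averaged 101 and 16 CPM, ZMAT3 60.4 and 11.3 CPM, and RRM2B 20.8 and 7.55 CPM, which are 6.30-fold, 5.34-fold and 2.75-fold. TP63 was 1.58-fold higher, at 201 against 127 CPM. TP73 went the other way, with 6.65 CPM in CAL-29 and 48.3 CPM in 5637 cells, a log2 difference of -2.86 (standard error 0.08).

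MDM2 and MDM4 started at similar levels in both lines. MDM2 had 92.5 CPM in CAL-29 and 96.8 CPM in 5637 cells (log2 difference -0.07, interval -0.15 to 0.02), and MDM4 had 35.4 and 32.9 CPM (log2 difference 0.10, interval -0.04 to 0.25). SESN1 was 1.33-fold higher in CAL-29 cells (edgeR adjusted p = 8.31e-05), short of the DEG threshold. Levels per kilobase used the length of the canonical transcript of GENCODE, which can differ from that of the RefSeq row counted. On that scale, the order of mean siCtrl levels in CAL-29 cells ran from TP63 at 40.7 CPM per kb through GDF15 at 26.0, TP53INP1 at 18.0, MDM2 at 12.3, ZMAT3 at 6.76 and RRM2B at 4.35 to MDM4 at 3.52, SESN1 at 3.35 and TP73 at 1.28 CPM per kb. MDM4 and SESN1 did not differ beyond their spread. In 5637 cells TP63 at 25.8 CPM per kb was again highest, followed by MDM2 at 12.9 and TP73 at 9.31, and GDF15 was lowest at 0.668 CPM per kb.

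**Figure D3:**
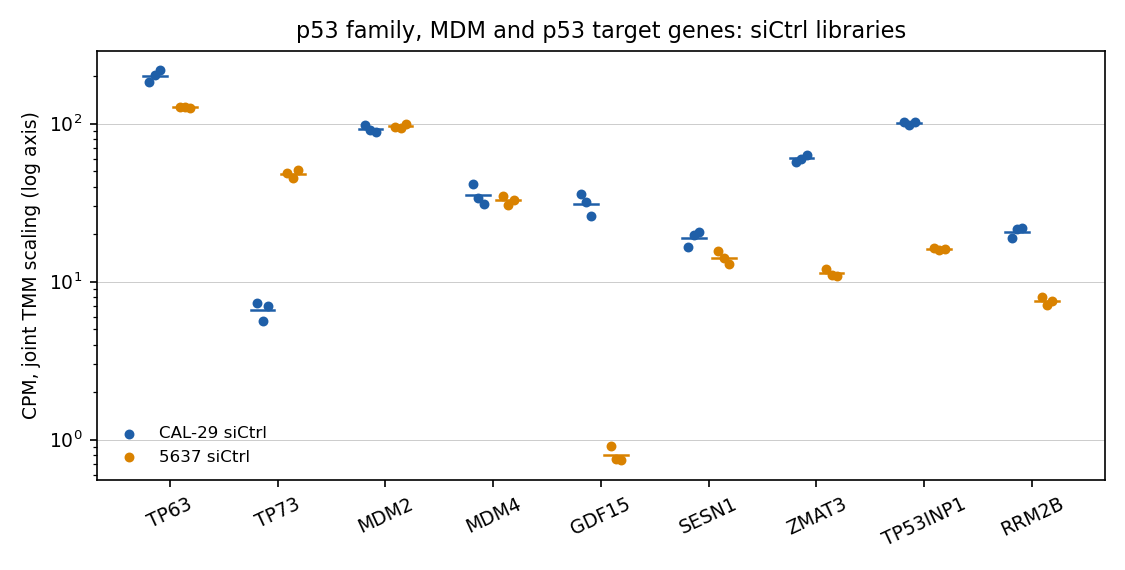
Level of each gene in the siCtrl libraries, in CPM after joint scaling on a log axis, with points for single libraries and lines for means of 3. GDF15 differs most, at 31.2 CPM in CAL-29 and 0.802 CPM in 5637 cells, and the points of MDM2 lie side by side at 92.5 and 96.8 CPM.

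Other p53 target genes moved in both directions in both lines. Of 76 further targets listed, 13 were upregulated and 20 downregulated of 74 tested in CAL-29 cells, and 14 and 24 of 73 in 5637 cells. These are 44.6% and 52.1% of the targets tested, against 30.0% and 35.6% of all genes. Their median was -0.13 for CAL-29, against -0.02 over all genes, and -0.07 for 5637, against -0.01 (log2 fold changes). In both lines 6 were upregulated and 11 downregulated, 4 changed in opposite directions, and the response of 22 of 74 differed between the lines past 1e-06. Over all genes, 8.49% were downregulated in both lines, 1.76% changed in opposite directions and 15.7% differed in response. Upregulation in both lines was counted for genes with an annotated 3′ UTR, where it held for 1103 of 12395.

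The 20 cell cycle and repair targets counted 1 up and 5 down in CAL-29 cells and 6 up and 7 down in 5637 cells. These are 30.0% and 65.0% of the list, against 30.0% and 35.6% of all genes, and without siCtrl replicate 1 the CAL-29 counts were 2 up and 7 down. CDKN1A, the p21 inhibitor of cyclin-dependent kinases, had 285, 292 and 299 CPM with siCtrl and 175, 170 and 165 CPM with siKMT9α in the CAL-29 line. Its 5637 libraries had 198, 204 and 192 CPM against 290, 323 and 313 CPM. It fell by 0.78 on the log2 scale in the CAL-29 line and rose by 0.64 in the 5637 line, a difference of -1.41 (standard error 0.06, edgeR adjusted p = 3.09e-17). SFN, the 14-3-3σ protein that holds cells in G2, had log2 fold changes of -1.47 and 0.25. Cyclin G1, encoded by CCNG1, fell in both lines with log2 fold changes of -1.10 and -1.01, and so did the antiproliferative factor BTG2 with -0.65 and -0.52. TRIAP1, a p53-regulated inhibitor of apoptosis, rose by 0.78 and 0.85.

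Of the 21 cell death targets, 19 were tested in the CAL-29 line, with 4 up and 5 down, and 18 in the 5637 line, with 4 up and 6 down. The shares called, 47.4% and 55.6%, compare with 30.0% and 35.6% of all genes. PMAIP1, which encodes the BH3-only protein NOXA, fell in both lines, with log2 fold changes of -1.07 and -0.80, as did TNFAIP8 with -1.34 and -1.69. The nuclease gene AEN rose by 0.90 and 0.70, and the TRAIL receptor gene TNFRSF10A by 0.66 and 0.83. FAS, a death receptor, rose by 1.0 with siKMT9α in CAL-29 cells and had -0.34 in 5637 cells (edgeR adjusted p = 0.000232), a difference of 1.35 (standard error 0.11). TNFRSF10B, another TRAIL receptor, had -0.24 in CAL-29 cells (edgeR adjusted p = 0.000402) and rose by 0.40 in 5637 cells.

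The 35 targets with metabolic and other roles counted 8 up and 10 down in CAL-29 cells, and 4 up and 11 down in 5637 cells, where library totals or upper quartile scaling left 2 up. Called genes made up 51.4% and 42.9% of this list and 30.0% and 35.6% of all genes. RAP2B, a small GTPase, rose by 1.05 and 1.11, and FUCA1, a lysosomal fucosidase, by 1.19 and 0.43. HHAT, the Hedgehog acyltransferase, fell with -1.5 and -1.34. RRAD, a Ras-related GTPase, fell with -0.92 for CAL-29 and with -2.89 for 5637, a line in which it had no more than 2.28 CPM. DRAM1, an autophagy regulator, rose by 0.55 in CAL-29 cells and fell with -0.83 in 5637 cells, a difference of 1.40 (standard error 0.06). ORAI3, a calcium channel subunit, had 0.35 in CAL-29 cells (edgeR adjusted p = 0.0001) and fell with -1.21 in 5637 cells.

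**Figure D4:**
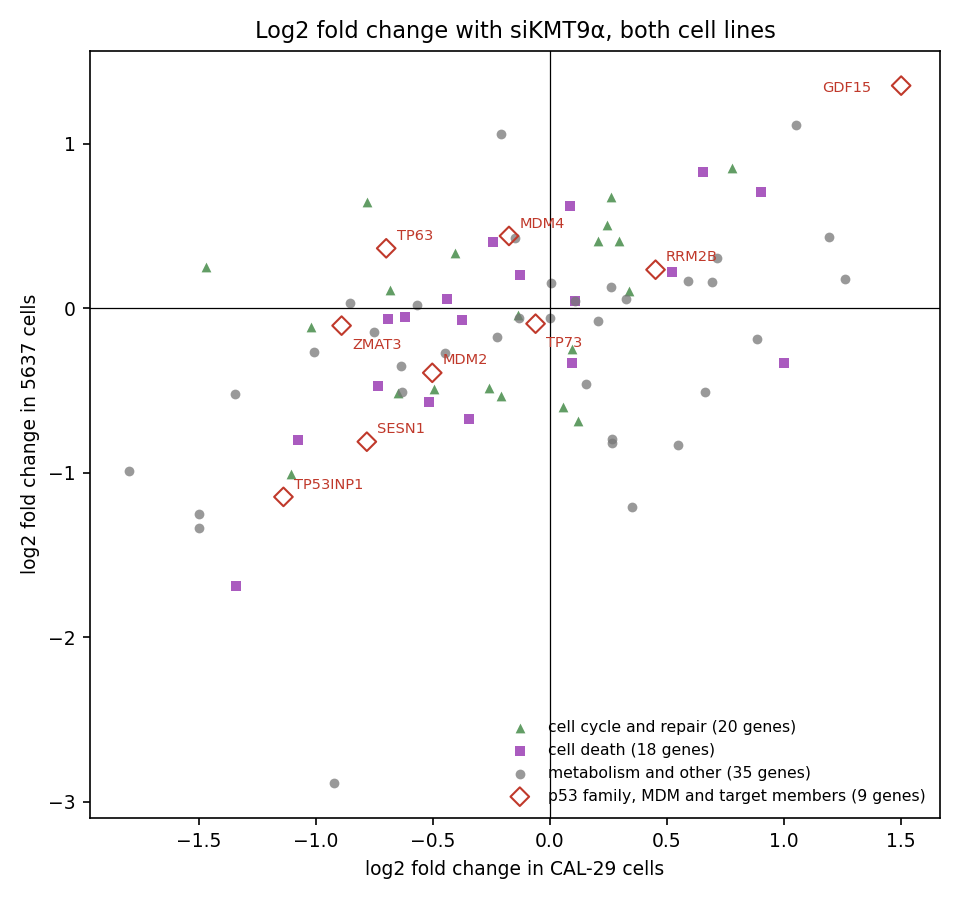
Log2 fold change with siKMT9α in CAL-29 cells (horizontal axis) and in 5637 cells (vertical axis), for the members (open diamonds with names) and the other listed p53 targets tested in both lines, by group. Points occupy all 4 quadrants; GDF15 is at the upper right with 1.5 and 1.35, and TP63 lies in the upper left quadrant with -0.70 and 0.36.

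Further regulators of p53, such as kinases, ubiquitin ligases and methyltransferases that modify it, were more often up than down, apart from CAL-29 cells with upper quartile scaling, where 5 rose and 5 fell. Of 35 listed, 34 were tested in the CAL-29 line, where 10 rose and 4 fell, and 35 in the 5637 line, where 13 rose and 3 fell. Over all genes 15.0% and 18.0% rose. The list's median log2 fold changes were 0.27 and 0.17, against -0.02 and -0.01 over all genes. Without siCtrl replicate 1 the CAL-29 counts became 16 and 5. In 5637 cells 8 rose with library totals and 9 with upper quartile scaling, and 3 fell with each. Scaling also moved the share of all calls that were up. In CAL-29 cells it was 49.8% with TMM, 46.1% with upper quartile scaling and 59.4% with library totals. In 5637 cells it was 50.6%, 44.5% and 42.8%. CHEK2, a DNA damage checkpoint kinase, rose by 1.25 and 0.58, and KMT5A, a methyltransferase of histone H4 and p53, by 0.72 and 1.04. The ubiquitin ligase gene RCHY1 fell with -1.25 and -1.08, and PPP1R13L, which encodes the p53 inhibitor iASPP, with -0.92 and -0.28. TRIM24, an E3 ligase for p53, fell with -0.60 in CAL-29 cells and had 0.27 in 5637 cells (edgeR adjusted p = 3.94e-05), and SMYD2, a p53 methyltransferase, had -0.42 (edgeR adjusted p = 3.83e-06) and rose by 0.41.

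Genes linked to p63 in basal epithelium moved in CAL-29 cells in the direction of TP63. Of 16 listed, 13 fell and 0 rose past 1e-06 by edgeR in CAL-29 cells, where 15.0% of all genes fell, and the list's median log2 fold change was -0.94. At an edgeR adjusted p below 0.05, 15 were lower and 0 higher, where 69.5% of all genes were called in either direction. DESeq2 called 14 lower and 0 higher at 1e-06. In the 5637 line 6 rose and 4 fell, against 18.0% and 17.6% of all genes, and the median was 0.18. The response of 11 of 16 differed between the lines past 1e-06, each lower in CAL-29 cells, against 15.7% of all genes, and the median difference was -0.80 against 0.04 over all genes. These differences come from the joint fit, where the transcript row used can differ from that of a line. DST had -0.7 in CAL-29 and 0.44 in 5637 cells, but a joint difference of -0.49 (standard error 0.08, edgeR adjusted p = 1.13e-05). Without siCtrl replicate 1 of CAL-29 cells, 14 of the 16 genes fell there and 0 rose.

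KRT6A, a keratin of activated and hyperproliferative epithelium, had 57.4, 57.4 and 53 CPM with siCtrl and 16, 14.1 and 13.6 CPM with siKMT9α in the CAL-29 line. Its 5637 libraries had 273, 301 and 276 CPM against 381, 389 and 408 CPM. The log2 fold changes were -1.94 and 0.47, and their difference of -2.39 (standard error 0.08, edgeR adjusted p = 3.77e-20) was larger than that of TP63 itself. COL17A1, a hemidesmosomal collagen, had -0.60 and 0.62, and the desmosomal cadherin gene DSC3 had -0.98 and 0.48, all past 1e-06. ITGA6, the α6 integrin of basal cells, fell in both lines with -1.51 and -0.86, and TRIM29 with -0.89 and -0.73. KRT5 had -1.25 and -0.28, and JAG2 -0.86 and -0.26. KRT14 had -2.68 (standard error 0.48) and -1.0 (standard error 0.17), short of 1e-06 in each line. BNC1 had -0.99 (standard error 0.07) and -1.58 (standard error 0.29), short of 1e-06 in 5637 cells. All of these were lower in both lines at an edgeR adjusted p below 0.05. In 5637 cells, where TP63 rose, 9 of the 16 were higher and 7 lower at that threshold, where 70.7% of all genes were called in either direction. FGFR2 had 0.01 in CAL-29 cells (edgeR adjusted p = 0.87) and rose by 0.40 in 5637 cells. SFN and PERP belong to the p53 target lists as well. None of the 16 is among the 6 epithelial markers, whose summed level was lower in both lines.

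**Figure D5:**
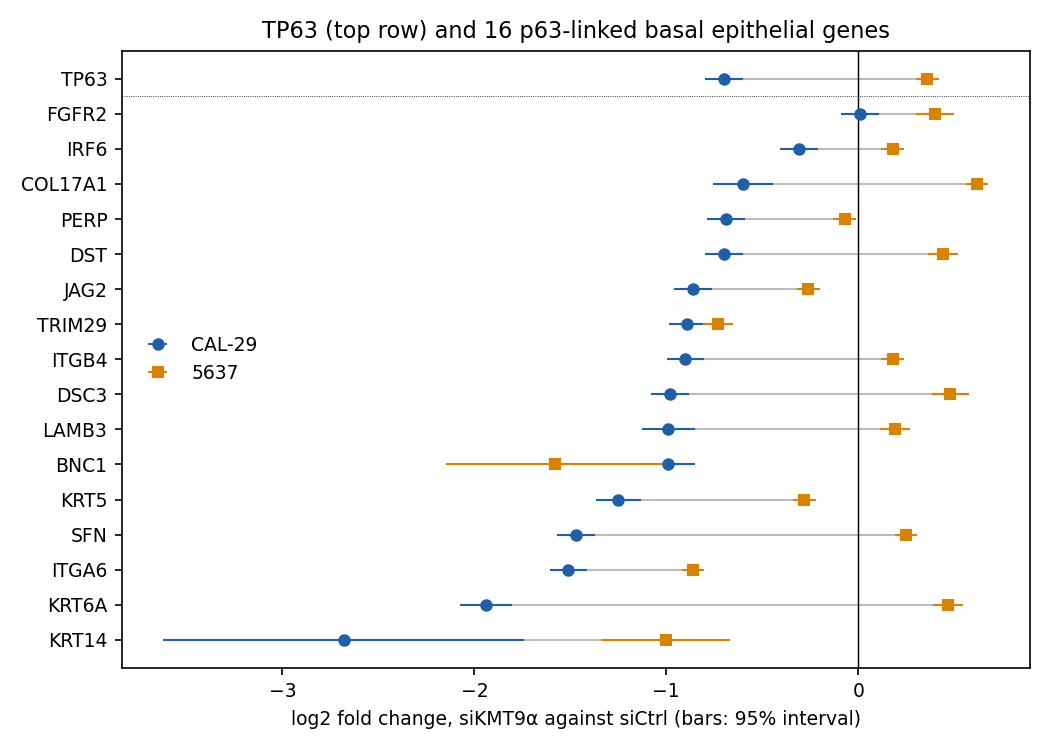
Log2 fold change with siKMT9α of TP63 (top row) and of 16 p63-linked genes, with 95% intervals, in CAL-29 cells (circles) and 5637 cells (squares), ordered by the CAL-29 value. Apart from FGFR2 at 0.01, the CAL-29 values of the 16 genes lie below 0, and the gray lines show the gap to 5637 cells, which for KRT6A runs from -1.94 to 0.47.

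The genes whose levels most resembled those of MDM2 across the 12 libraries, after centring each line and by the root mean square difference of log2 CPM among 13674 genes, were ATP6V1C2 (0.031), ITGB1 (0.0385) and FAM110A (0.0415), where MDM2 itself varied by 0.222. For GDF15, which varied by 0.658, they were CLCA4 (0.148), RDH10 (0.171) and NFE2L3 (0.174). A pseudocount of 0.5 CPM was added before the log, which shrinks changes at low levels. In edgeR's fits CLCA4 had log2 fold changes of 5.69 and 3.29 in CAL-29 and 5637 cells, far from the 1.5 and 1.35 of GDF15. RDH10 had 1.64 and 0.9, and NFE2L3 1.5 and 0.83. These rankings are descriptions over libraries that share the siRNA contrast.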

How the data were processed

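RNA was sequenced in 12 libraries, whose line, siRNA and replicate number come from the labels. The authors aligned reads to hg19 with STAR and counted them per RefSeq transcript with HOMER, and the deposited estimated counts, in steps of 0.5 and without normalization, cover 37400 transcripts. Columns with p-values and log2 fold changes from the authors' comparison were deposited too and were not used. For each symbol the most counted row of a line was taken, with counts rounded to integers. The joint fit used the row with the most counts over all 12 libraries. That row can differ from the row of a line, so a tested difference need not equal the gap between the values of the lines. In edgeR 4.0.16 (R 4.3.3), libraries were scaled with TMM, filtered with filterByExpr and tested with the quasi-likelihood F test, within each line and, for differences between lines, in a joint fit of all 12 libraries. The standard error is the log2 fold change divided by the square root of F, and intervals are 1.96 standard errors to each side. Replicates differed by more than sampling noise, so depth was not the limit for well-expressed genes.

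The members and gene lists were chosen with earlier results of these data known. Genes were named by rule: every member, N6AMT1, and in each list the highest and lowest mean log2 fold changes among genes called at 1e-06 with the same sign in each line and the largest differences between lines past 1e-06, and the 3 genes nearest to MDM2 and to GDF15 in level. COL17A1, DSC3, DST, FGFR2, PERP, KRT5, KRT14, JAG2 and BNC1 were named after their values were seen. Positions and 3′ UTRs are from GENCODE v44lift37 on GRCh37, the assembly that hg19 denotes. Alternatives were DESeq2 1.42.0, edgeR's likelihood ratio test, other scalings, filters and thresholds, other transcript rows, a replicate term and each library left out in turn. A leukocyte marker of the initial list is not reported here.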

Additional observations from a re-analysis of the deposited data

Results flagged for a closer look

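The response of TP63 to siKMT9α differed between the lines by -1.05 on the log2 scale, CAL-29 minus 5637, by the interaction term of the joint fit (edgeR adjusted p = 8.19e-14), and it was lower in 3 of 3 siKMT9α libraries in CAL-29 cells and higher in 3 of 3 in 5637 cells.

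ZMAT3 was flagged by the same term, with a difference of -0.77 (edgeR adjusted p = 1.11e-07). Its siCtrl level was 60.4 CPM in CAL-29 and 11.3 CPM in 5637 cells. In both cases, reagent and siRNA concentration differ with the line and cannot be told apart from it.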

How the results depend on the processing

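The directions of MDM2, TP53INP1, ZMAT3 and TP63 within each line held under every alternative run, and so did their calls at 1e-06 except where a size of the change was also required. A threshold that also asked for a log2 fold change of 1 or more in size left 2 members called in CAL-29 cells, 1 in 5637 cells and 1 that differed between lines, and 13 and 8 of the listed p53 targets in CAL-29 and 5637 cells. How many of all genes passed that threshold was not counted. At an adjusted p below 0.05, 58 of the 74 listed targets tested were called in CAL-29 cells, against 69.5% of all genes tested. With each library left out in turn, 5 to 6 members were called in CAL-29 cells, 5 in 5637 cells, 2 to 3 for the difference between lines and 6 between the siCtrl groups, and of the targets 26 to 39 in CAL-29 and 32 to 37 in 5637 cells. Values near 0 changed sign. TP73 in CAL-29 cells became 0.02 with library totals and lay between -0.16 and 0.02 with a library left out, where the value of 0.02 was without siCtrl replicate 1. For the difference between lines, MDM2 became 0.03 with library totals. With a library left out, the difference of TP73 lay between -0.05 (without CAL-29 siCtrl replicate 2) and 0.13, that of SESN1 between -0.04 (without CAL-29 siCtrl replicate 1) and 0.12, and that of TP53INP1 between -0.01 (without 5637 siKMT9α replicate 3 or CAL-29 siKMT9α replicate 1) and 0.08. The causes were not tested. MDM4 in 5637 cells missed the DEG threshold in edgeR's joint fit, and GDF15 there passed it with the likelihood ratio test and without the filter, as did RRM2B in CAL-29 cells, also in the joint fit. Library totals moved the median difference of all genes between lines from 0.04 to 0.16 and the share of positive calls from 54.8% to 72.4%.

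Pairing by replicate number was weak at most, with correlations between -0.01 and 0.14 for deviations of libraries with the same number. With the replicate block, 7 members were called in CAL-29 cells, 5 in 5637 cells and 3 for the difference between lines, and RRM2B in CAL-29 cells and the difference of MDM4 then passed 1e-06. Over all genes, the block raised the DEGs from 4402 to 6327 in CAL-29 cells and from 5104 to 5378 in 5637 cells. Of the listed p53 targets, 45 in place of 33 were called in CAL-29 cells, and 38 with or without it in 5637 cells. In each line, libraries of number 1 alone correlated best with their own number.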
